A study of Rattus norvegicus with 45 samples.

Results

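The 43 genes described here drive DNA replication and cell division, and they are a list of proliferation genes matched by symbol, drawn up with earlier results of these data known. All 43 were found among the 20794 genes of the deposited tables. RNA sequencing of 45 libraries covered 8 tissues. The animals were male rats aged 8 weeks, of 220 to 260 g, from the spontaneously hypertensive line, which is inbred and develops high blood pressure. The empagliflozin rats received that drug, an inhibitor of the sodium-glucose cotransporter SGLT2, by gavage at 10 mg/kg per day for 30 days, and the vehicle rats received saline in the same way. Each tissue and arm had 3 libraries (24 empagliflozin and 21 vehicle), which the series describes as 3 rats per arm. Kidney, lung, aorta, brain, brown fat, white fat and the libraries labelled V had both arms, and atrium was represented by empagliflozin rats only. The question was whether these genes differed between empagliflozin and vehicle rats in each tissue, and whether kidney and lung differed in this.

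A dividing cell builds most of these transcripts only around S phase and mitosis, and their level in a tissue is commonly read as a sign of how many of its cells are cycling. The Mcm helicase opens the DNA, the clamp Pcna holds the polymerases, and ribonucleotide reductase (Rrm1 and Rrm2), thymidylate synthase (Tyms) and thymidine kinase (Tk1) supply the building blocks. Cyclins with Cdk1 start mitosis, the aurora, polo and checkpoint kinases time it, kinesins and their partners build the spindle and cut the cell apart, and Cdc20 and Ube2c mark cyclins for destruction. Most cells of an adult kidney are at rest, whereas the lung also holds dividing immune cells.

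Levels are FPKM, read fragments scaled to transcript length and to the mapped reads of the library, which the authors had computed. These values hold no counts, so the read depth of a library is unknown. The FPKM of a library summed to between 414248 and 824205. The tissue labels were set against marker genes. Kidney, lung, brain and white fat libraries each had a higher sum of their own marker list than any library of another tissue. A sum of own markers does not show RNA of other tissues, and such markers in white fat are given below. The libraries labelled V are liver by their label and ventricle by the series description, and their cardiomyocyte markers exceeded their hepatocyte markers by 11.6 ± 0.32 on the log2 scale (SD, n = 6). Aorta libraries were uneven. Library 1 of each arm had summed smooth muscle markers of 302 FPKM with empagliflozin and 358 FPKM with vehicle, against 5328 to 20770 FPKM in the other aorta libraries. Brown adipocyte markers summed to 14810 FPKM in that empagliflozin library and to 21520 FPKM in that vehicle library. They also summed to 7711 FPKM in empagliflozin library 3, against 384 FPKM in empagliflozin library 2. Vehicle libraries 2 and 3 had 1404 and 131 FPKM. No member was called in aorta with all libraries or with any single library left out. Each of these fits still held libraries with much brown adipocyte RNA.

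What the members share in their promoters is shown first, as a description of the list. RefSeq promoter windows of build GRCr8, from 250 bases before the transcription start to 50 after it, were at hand for 35 of the 43 genes. The cell cycle genes homology region, CHR, was searched as TTTGAA and TTCGAA. The CCAAT box was searched as CCAAT, and the E2F site as TTTGGCGC, TTTCGCGC, TTTCCCGC and TTTGCCGC. Both strands were read for all of them, so that an E2F match on one strand can overlap a match on the other. A CHR was present in 20 of the 35 windows (57.1%), against 19.7% of all 33469 windows in the RefSeq table. A CCAAT box was present in 27 (77.1%, against 37.5%) and both in 18 (51.4%, against 7.95%). An E2F site was present in 8 (22.9%, against 2.14%). Among the 17702 windows of genes with FPKM values, 16.2% held a CHR, 37.4% a CCAAT box, 6.65% both and 3.09% an E2F site. The motifs differed by role. Of the 9 windows of helicase, clamp and nucleotide genes 6 held an E2F site (66.7%) and 3 a CHR (33.3%). Of the 26 other windows 2 held an E2F site (7.69%) and 17 a CHR (65.4%). Tk1, Aurka, Bub1 and Melk held none of these letters. Matches are descriptions of sequence, not evidence of binding.

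The 8 stretches below run from 150 bases before the start to 30 after it, 5′ to 3′ in the direction of the gene, with every motif match in capitals. Cdk1, Ccnb2, Top2a and Nusap1 show the mitotic pattern of CCAAT boxes (ATTGG when read on the other strand) upstream of a CHR close to the start. Mcm2, Mcm6 and Tyms show the replication pattern with E2F sites. Melk has none of them. Whether motifs go with the course of a gene across libraries was not tested.
Cdk1, chr20:19265143-19265322, plus strand: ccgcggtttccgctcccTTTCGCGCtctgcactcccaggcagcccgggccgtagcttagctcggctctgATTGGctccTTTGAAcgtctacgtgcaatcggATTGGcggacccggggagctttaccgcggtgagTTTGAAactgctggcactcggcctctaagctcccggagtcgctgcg
Ccnb2, chr8:79981629-79981808, minus strand: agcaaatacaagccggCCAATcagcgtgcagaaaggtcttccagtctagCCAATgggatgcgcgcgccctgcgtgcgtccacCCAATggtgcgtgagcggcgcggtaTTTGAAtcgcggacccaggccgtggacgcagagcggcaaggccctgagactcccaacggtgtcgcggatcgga
Top2a, chr10:84473064-84473243, minus strand: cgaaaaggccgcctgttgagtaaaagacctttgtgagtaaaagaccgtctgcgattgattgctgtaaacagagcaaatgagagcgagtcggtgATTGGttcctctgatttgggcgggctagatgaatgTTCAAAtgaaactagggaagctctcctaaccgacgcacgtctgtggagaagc
Nusap1, chr3:127057145-127057324, plus strand: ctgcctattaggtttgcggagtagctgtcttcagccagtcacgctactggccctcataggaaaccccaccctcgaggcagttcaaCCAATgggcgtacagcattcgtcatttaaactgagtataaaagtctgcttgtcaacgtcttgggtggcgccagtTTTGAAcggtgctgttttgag
Mcm2, chr4:122918065-122918244, minus strand: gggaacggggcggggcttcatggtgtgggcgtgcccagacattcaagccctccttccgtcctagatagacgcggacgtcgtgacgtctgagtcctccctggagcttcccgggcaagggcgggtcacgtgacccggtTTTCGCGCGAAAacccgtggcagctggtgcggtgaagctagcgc
Mcm6, chr13:42404323-42404502, minus strand: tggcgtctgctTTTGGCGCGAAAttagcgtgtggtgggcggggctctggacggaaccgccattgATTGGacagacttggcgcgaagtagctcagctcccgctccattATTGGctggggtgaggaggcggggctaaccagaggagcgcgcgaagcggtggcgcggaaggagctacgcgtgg
Tyms, chr9:120776054-120776233, minus strand: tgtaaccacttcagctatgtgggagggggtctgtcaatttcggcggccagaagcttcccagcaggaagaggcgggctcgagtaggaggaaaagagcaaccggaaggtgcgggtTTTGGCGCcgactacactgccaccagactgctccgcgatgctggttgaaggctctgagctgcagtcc
Melk, chr5:63336001-63336180, plus strand: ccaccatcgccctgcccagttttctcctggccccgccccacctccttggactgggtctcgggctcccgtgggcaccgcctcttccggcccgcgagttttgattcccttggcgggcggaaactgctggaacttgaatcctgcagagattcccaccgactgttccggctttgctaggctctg
In Mcm2 and in Mcm6 the capitals of the E2F site are 2 matches that overlap, 1 on each strand. Cdk1 carried all 3 kinds of motif.

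Lung had the highest levels of these genes. In vehicle rats 39 of the 43 had their highest mean in lung, and in 27 of them all 3 lung libraries exceeded every vehicle library of the other tissues. Melk, Kif11 and Ect2 were highest in kidney and Tyms in brown fat. As the mean of the 43 values of log2(FPKM + 1), empagliflozin lungs had 2.11 ± 0.16 and vehicle lungs 2.86 ± 0.52, and empagliflozin kidneys had 1.84 ± 0.24 and vehicle kidneys 1.45 ± 0.07 (SD, n = 3 each). The other tissues were lower and close together. With empagliflozin they lay between 1.002 ± 0.078 in brown fat and 1.25 ± 0.20 in aorta, and with vehicle between 0.96 ± 0.07 in brown fat and 1.44 ± 0.19 in white fat. The spread of vehicle kidney, white fat and aorta (1.33 ± 0.36) overlapped, as did that of V (1.09 ± 0.18), brain (1.02 ± 0.06) and brown fat. In bulk tissue, fewer cycling cells and less of these RNAs per cell cannot be told apart.

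**Figure D1:**
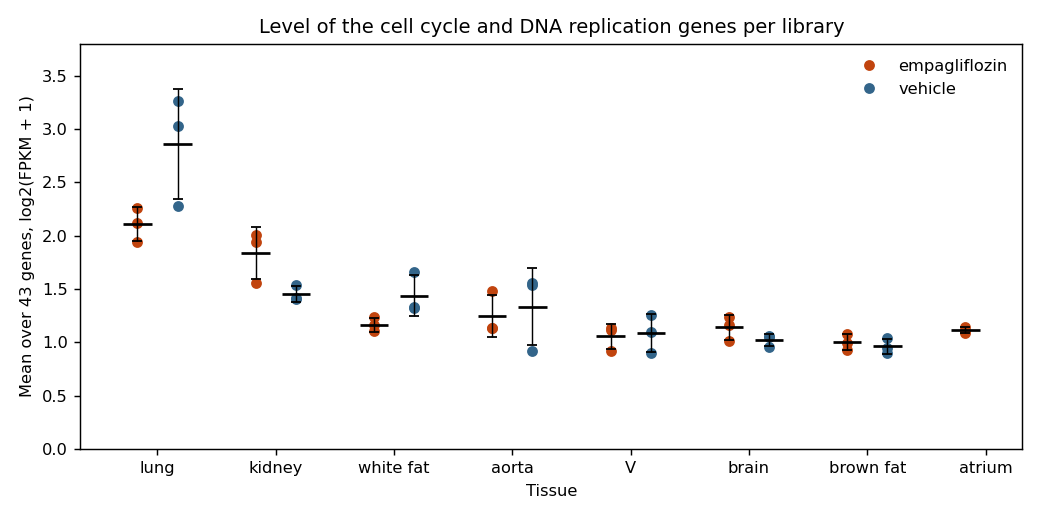
Mean level of the 43 genes in each library on the log2(FPKM + 1) scale, by tissue, with empagliflozin in red to the left of vehicle in blue. Bars are the mean and SD of 3 libraries. Vehicle lungs spread from 2.28 to 3.27 and lie above every other library, the lowest only just above the highest empagliflozin lung (2.26), while empagliflozin kidneys (1.56 to 2.01) lie above vehicle kidneys (1.41 to 1.54).

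Mki67, the protein that coats mitotic chromosomes and is the usual marker of proliferation, had 0.58, 0.29 and 0.67 FPKM in empagliflozin kidneys, against 0.17, 0.2 and 0.2 FPKM in vehicle kidneys. In lung it had 2.2, 1.67 and 1.02 FPKM with empagliflozin, against 4.09, 7.18 and 2.24 FPKM with vehicle. All 3 kidney libraries were thus higher and all 3 lung libraries lower with the drug. In the other tissues Mki67 lay between 0.06 and 0.60 FPKM with empagliflozin and between 0.10 and 0.84 FPKM with vehicle. Mcm2, a subunit of the helicase, had 9.35, 5.28 and 10.2 FPKM in empagliflozin kidneys, against 4.76, 7.16 and 4.91 FPKM in vehicle kidneys. It had 6.24, 4.84 and 4.99 FPKM in empagliflozin lungs, against 11.9, 10.8 and 4.59 FPKM in vehicle lungs. For Mcm2 the arms overlapped in both organs, and unlike the mean of the 43 genes it averaged more in kidney than in lung with empagliflozin. Elsewhere Mcm2 ranged from 0.84 to 4.66 FPKM with empagliflozin, the highest in atrium, and from 0.82 to 3.21 FPKM with vehicle. Outside kidney and lung, Top2a stayed between 0.09 and 0.69 FPKM with empagliflozin and between 0.09 and 1.13 FPKM with vehicle. Cdk1 lay between 0.23 and 2.06 FPKM with empagliflozin and between 0.11 and 5.08 FPKM with vehicle there, and Rrm2 between 0.28 and 3.01 FPKM with empagliflozin and between 0.49 and 4.05 FPKM with vehicle. The highest of those values for each gene came from aorta. Pcna, which also serves DNA repair in resting cells, was abundant everywhere, with 17.95 to 35.6 FPKM with empagliflozin and 15.3 to 41.9 FPKM with vehicle in these tissues.

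In kidney most of these genes had higher values with empagliflozin, but none passed the test. Of the 43, 39 were higher and 4 were lower (Tk1, Melk, Kif11 and Ect2), with a median difference of 0.36 on the log2(FPKM + 1) scale, or 0.67 with a pseudocount of 0.1. All genes tested in kidney had a median of 0.10 and 66.6% of them were higher. Each tissue was tested with limma on that scale and a gene was tested where its libraries averaged 1 FPKM or more, which 30 of the 43 reached in kidney. Of those 30, 0 passed a Benjamini-Hochberg adjusted p of 0.05 (smallest adjusted p = 0.419), as did 0 of all 12569 genes (percentage called, 0.00). At an unadjusted p under 0.05, 13 of the 30 were higher and 1, Kif11, was lower, against 8.42% of all genes higher and 3.27% lower. All 3 empagliflozin libraries lay above all 3 vehicle libraries in 14 of the 30 tested and below them in 1, against 13.6% and 5.56% of all genes. With quantile or median-ratio scaling, which remove the shift of all genes, 38 were higher and the median was 0.23 or 0.28, and Mcm7 turned to lower.

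Among the replication genes in kidney, Rrm1, the large subunit of ribonucleotide reductase, had 14.7, 14.4 and 16.1 FPKM with empagliflozin, against 10.3, 10.7 and 11.6 FPKM with vehicle. That difference of 0.44 ± 0.11 (SE; limma, Benjamini-Hochberg adjusted p = 0.419) had the lowest p of the 30 tested. Tyms, which makes thymidylate, had 11.7, 7.78 and 17.1 FPKM with empagliflozin, against 5.53, 7.24 and 6.55 FPKM with vehicle. Rrm2, the S phase subunit of the reductase, had 5.11, 1.86 and 3.33 FPKM with empagliflozin, against 1.13, 1.46 and 1.84 FPKM with vehicle. In each of these genes the arms did not overlap, but for Tyms and Rrm2 empagliflozin library 2 came close to the vehicle range. Pcna had 34.7, 34.1 and 38.6 FPKM with empagliflozin, against 29.2, 29.8 and 27.7 FPKM with vehicle. Mcm6 had 2.87, 1.79 and 3.56 FPKM with empagliflozin, against 1.11, 1.39 and 1.43 FPKM with vehicle. All 7 helicase and clamp genes had higher means, by 0.03 (Mcm7, lower under either other scaling) to 0.67 (Mcm6). Tk1, the salvage enzyme for thymidine, stood apart with 7.92, 7.88 and 5.26 FPKM with empagliflozin, against 8.46, 6.25 and 7.02 FPKM with vehicle.

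Among the mitotic genes in kidney, Top2a, the enzyme that untangles sister chromosomes, had 1.88, 0.87 and 2.22 FPKM with empagliflozin, against 0.38, 0.44 and 0.26 FPKM with vehicle. This was the largest difference of the 43 in kidney, 0.93 ± 0.24 (SE; limma, Benjamini-Hochberg adjusted p = 0.419). Cdk1, the kinase that starts mitosis, had 4.4, 2.02 and 3.48 FPKM with empagliflozin, against 1.2, 1.75 and 0.83 FPKM with vehicle (difference 0.91 ± 0.27, SE). Racgap1, part of the complex that places the cleavage furrow, had 2.46, 1.32 and 3.98 FPKM with empagliflozin, against 0.62, 1.30 and 0.68 FPKM with vehicle. Empagliflozin library 2 was again the lowest of its arm, here only 0.02 FPKM above the highest vehicle library. Cdca3, which in Xenopus promotes entry into mitosis, had 4.53, 1.34 and 2.44 FPKM with empagliflozin, against 0.93, 0.90 and 0.90 FPKM with vehicle. Prc1, which bundles the microtubules of the spindle midzone, had 2.77, 1.15 and 3.12 FPKM with empagliflozin, against 0.95, 1.02 and 0.58 FPKM with vehicle. In both genes the arms did not overlap.

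Kidney library 2 of the empagliflozin arm was the lowest of its arm in 37 of the 43 genes. Its mean over the 43 genes was 1.56, against 2.01 and 1.94 in empagliflozin libraries 1 and 3. Without it, 8 genes passed the Benjamini-Hochberg threshold (Cdca3, Cdk1, Kif20a, Mcm6, Prc1, Rrm2, Top2a and Tyms, all higher), against 4.73% of all genes called higher in that fit. Leaving out any other kidney library gave 0. The tests leave out the low genes, since 13 of the 43 had a mean under 1 FPKM in kidney, Mki67, Bub1 and Tpx2 among them.

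**Figure D2:**
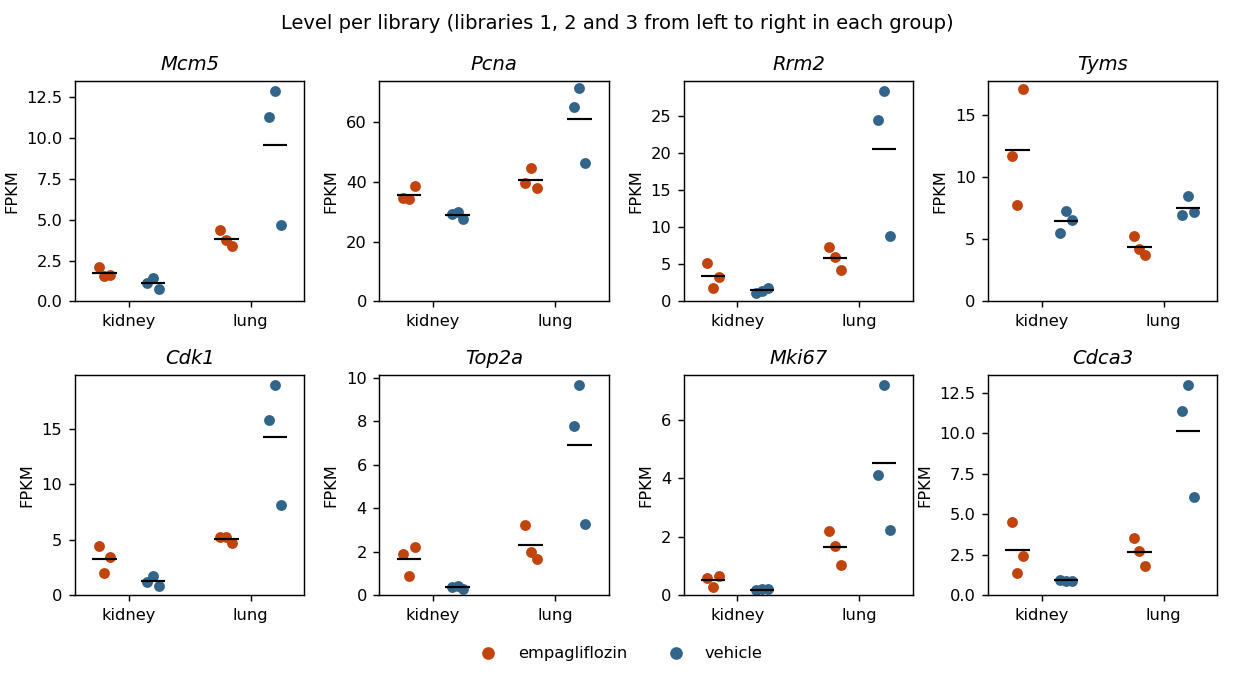
FPKM of 8 genes in each kidney and lung library, empagliflozin in red to the left of vehicle in blue, with the mean of 3 libraries as a line and each axis starting at 0. The 8 are among the 14 members in which the arms were separate in each organ, higher in kidney and lower in lung with empagliflozin. The panels therefore show that pattern by selection, and members outside the 14 did not have it. The third vehicle lung lies nearest to the empagliflozin lungs in every panel but Tyms.

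In kidney 6 of the 43 genes did not follow the others closely, Kif11, Melk, Tk1, Ect2, Mcm7 and Ccnb2. Kif11, the motor that pushes the spindle poles apart, had 13.5, 13.2 and 10.6 FPKM in empagliflozin kidneys, against 16.3, 20.8 and 17.9 FPKM in vehicle kidneys (difference -0.52 ± 0.14, SE; limma, Benjamini-Hochberg adjusted p = 0.419). In lung it had 1.07, 0.87 and 0.84 FPKM with empagliflozin, against 2.92, 3.36 and 1.22 FPKM with vehicle. Every kidney library had more Kif11 than any lung library, opposite to most of the 43. Melk, a kinase of dividing cells, had 12.8, 14.0 and 6.07 FPKM in empagliflozin kidneys, against 17.03, 11.5 and 12.7 FPKM in vehicle kidneys, and its arms overlapped. Over the 6 kidney libraries the correlation with the mean of the other members was -0.72 for Kif11, -0.63 for Melk, -0.37 for Tk1, -0.18 for Ect2, 0.10 for Mcm7 and 0.40 for Ccnb2, against a median of 0.90 over the 43. In lung the same correlations were 0.99 for Kif11, Melk and Ect2, 0.98 for Tk1, 0.97 for Mcm7 and 0.72 for Ccnb2. Kif11 overlaps the gene Ide in the RefSeq annotation of GRCr8. Ide had 31.6 to 37.6 FPKM in empagliflozin kidneys, against 32.1 to 33.7 FPKM in vehicle kidneys. The labels do not say whether reads were counted by strand, so reads of Kif11 and Ide may not have been told apart. In all, 9 of the 43 genes overlap another coding gene there, among them Rrm2, Aurka, Nusap1, Kif20a and Cdca3.

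In lung nearly all of these genes had lower values with empagliflozin, and again none passed the test. Of the 43, 41 were lower and 2, Aurkb and Cenpf, were higher, with a median difference of -0.74 on the log2(FPKM + 1) scale. All genes tested in lung had a median of 0.03, and 56.3% were higher and 43.7% lower. Cenpf turned to lower with quantile normalization. With limma, 40 of the 43 could be tested and 0 passed (smallest Benjamini-Hochberg adjusted p = 0.621), as did 0 of all 13926 genes (percentage called, 0.00). At an unadjusted p under 0.05, 30 of the 40 were lower and 0 higher, against 2.98% of all genes lower and 4.47% higher. All 3 empagliflozin lungs lay below all 3 vehicle lungs in 20 of the 40 and above them in 0, against 4.75% and 7.86% of all genes.

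Among the replication genes in lung, Rrm2 had 7.36, 5.93 and 4.24 FPKM with empagliflozin, against 24.5, 28.4 and 8.88 FPKM with vehicle (difference -1.54 ± 0.41, SE; limma, Benjamini-Hochberg adjusted p = 0.636). Tyms had 5.23, 4.23 and 3.74 FPKM with empagliflozin, against 6.93, 8.49 and 7.22 FPKM with vehicle (difference -0.67 ± 0.14, SE). Pcna had 39.8, 44.8 and 37.8 FPKM with empagliflozin, against 65.3, 71.6 and 46.4 FPKM with vehicle. Vehicle library 3 was well below its fellows in Rrm2 and Pcna but not in Tyms. All 11 genes of the helicase, clamp and nucleotide groups were lower in lung, and 7 of them at an unadjusted p under 0.05.

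Among the mitotic genes in lung, Cdca3 had 3.5, 2.71 and 1.8 FPKM with empagliflozin, against 11.4, 13.0 and 6.06 FPKM with vehicle. Its difference of -1.57 ± 0.29 (SE; limma, Benjamini-Hochberg adjusted p = 0.621) was the largest of the 43 in lung and had the lowest p. Cdk1 had 5.21, 5.29 and 4.69 FPKM with empagliflozin, against 15.9, 19.0 and 8.11 FPKM with vehicle (difference -1.26 ± 0.28, SE). Nusap1, which bundles spindle microtubules at the chromosomes, had 2.44, 2.12 and 1.32 FPKM with empagliflozin, against 6.84, 8.66 and 3.53 FPKM with vehicle. Top2a had 3.24, 1.97 and 1.67 FPKM with empagliflozin, against 7.79, 9.67 and 3.29 FPKM with vehicle. In Top2a the lowest vehicle library and the highest empagliflozin library nearly touched. Ccnb2, a B-type cyclin, had 1.10, 0.48 and 1.30 FPKM with empagliflozin, against 1.82, 3.25 and 2.16 FPKM with vehicle. Bub1b, a guard of the spindle checkpoint, had 0.76, 0.63 and 0.65 FPKM with empagliflozin, against 1.81, 2.39 and 1.10 FPKM with vehicle. Kif20a and Kif23, kinesins of cell separation, had the same order. Kif20a had 3.73, 2.64 and 2.31 FPKM with empagliflozin, against 6.15, 6.60 and 3.84 FPKM with vehicle. Kif23 had 2.72, 3.33 and 3.69 FPKM with empagliflozin, against 5.52, 7.09 and 4.54 FPKM with vehicle. All 9 spindle and cytokinesis genes were lower in lung at an unadjusted p under 0.05.

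Vehicle lung 3 was the lowest of its arm in 40 of the 43 genes. Its mean over them was 2.28, against 3.03 and 3.27 in vehicle libraries 1 and 2 and 1.94 to 2.26 in empagliflozin lungs. Without it 7 genes passed the Benjamini-Hochberg threshold, all lower (Ccna2, Cdca3, Cdk1, Ect2, Mcm5, Rrm2 and Tk1), against 0.215% of all genes called lower in that fit. Leaving out any other lung library called none of the members. At an unadjusted p under 0.05, 12 were lower without vehicle library 1 (all genes, 1.85%), 13 without vehicle library 2 (1.80%) and 14 without empagliflozin library 3 (2.19%). With all 7 tissues in 1 fit, which shares 1 estimate of spread, 4 passed in lung (Cdca3, Kif11, Nusap1 and Top2a), against 0.0882% of all genes called lower.

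Aurka and Aurkb, the aurora kinases of spindle poles and centromeres, did not follow the others in lung. Aurkb had 107, 127 and 73.2 FPKM in empagliflozin lungs, against 80.4, 90.9 and 30.7 FPKM in vehicle lungs. In kidney it had 1.81, 0.67 and 1.30 FPKM with empagliflozin, against 0.69, 0.33 and 0.40 FPKM with vehicle. Lung thus had much more Aurkb than kidney in each arm, and more than the levels there of its partners in the passenger complex, Birc5 and Cdca8. Birc5 had 2.28 to 6.10 FPKM in empagliflozin lungs, against 3.99 to 16.0 FPKM in vehicle lungs, and Cdca8 had 2.4 to 3.8 FPKM with empagliflozin, against 2.89 to 8.35 FPKM with vehicle. Aurka had 17.6, 19.6 and 19.1 FPKM in empagliflozin lungs, against 18.1, 19.0 and 20.7 FPKM in vehicle lungs. Over the 6 lung libraries the correlation with the other members was 0.06 for Aurkb and -0.26 for Aurka, against a median of 0.98 over the 43. Cenpf, a large kinetochore protein, also differed by only 0.02 in lung.

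**Figure D3:**
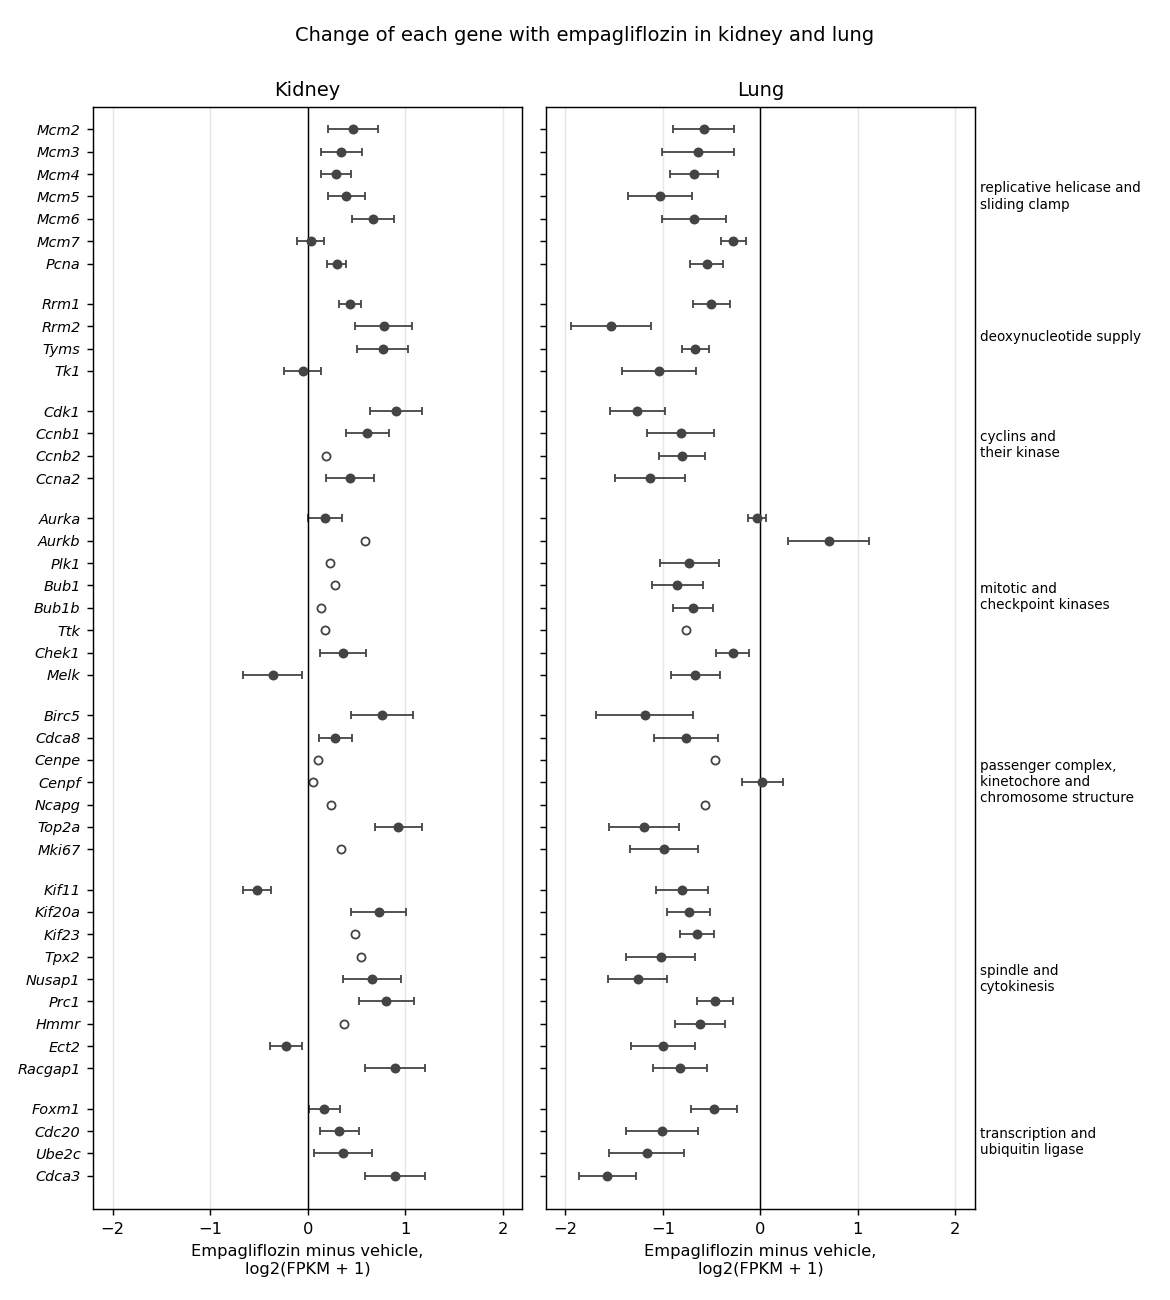
Difference between empagliflozin and vehicle rats for each of the 43 genes on the log2(FPKM + 1) scale, kidney on the left and lung on the right, in order of role. Bars are the SE of limma, and hollow points mark genes under the mean of 1 FPKM that were not tested. In kidney 39 points lie right of 0 and in lung 41 lie left of it, with Aurkb at 0.70 and Cenpf at 0.02 to the right.

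The effects in kidney and lung were then compared with each other. Of the 43 genes, 37 were higher in kidney and lower in lung with empagliflozin (86.0%). Of the 30 tested in both organs 26 had that pattern (86.7%), against 3316 of 11704 genes tested in both (28.3%). The exceptions were Tk1, Melk, Kif11 and Ect2, lower in both, and Aurkb and Cenpf, higher in both. The difference of the 2 effects, kidney minus lung, was above 0 in 42 of the 43, against 60.1% of all genes tested, and had a median of 1.04 on the log2 scale. It was above 0 in 42 with quantile and with median-ratio scaling too. In the test of that difference itself (arm by tissue term in limma), 0 of 38 tested genes passed (smallest Benjamini-Hochberg adjusted p = 0.228), as did 0 of 14144 genes (percentage called, 0.00). At an unadjusted p under 0.05, 30 of the 38 were above 0 and 0 below, against 6.49% and 4.23% of all genes.

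Cdca3 had the largest difference between the organs, 2.46 ± 0.45 (SE; limma, Benjamini-Hochberg adjusted p = 0.228). Cdk1 differed by 2.17 ± 0.41 (SE; limma, Benjamini-Hochberg adjusted p = 0.229). Top2a differed by 2.12 ± 0.45, and Tyms by 1.44 ± 0.32. These 4 come from 4 roles, from nucleotide supply to mitotic entry. Nusap1 (1.92), Rrm2 (2.32), Pcna (0.85), Rrm1 (0.94), Racgap1 (1.72) and Kif20a (1.47) followed by p, with adjusted p of limma between 0.323 and 0.353. Rrm1 had 13.4, 11.9 and 9.84 FPKM in empagliflozin lungs, against 19.3, 19.5 and 12.8 FPKM in vehicle lungs, and Racgap1 had 2.64, 2.18 and 1.52 FPKM in empagliflozin lungs, against 5.07, 6.36 and 2.66 FPKM in vehicle lungs. Without vehicle lung 3, 15 genes passed, against 0.397% of all genes called in that direction. Without empagliflozin kidney 2, 11 passed, against 2.83%, and with all 7 tissues in 1 fit 6 passed, against 0.197%. Cdca3, Cdk1, Nusap1, Rrm2 and Top2a passed in each of these 3. The libraries left out there were each the nearest of their arm to the other arm, which favours passing. Leaving out any other single kidney or lung library called none of the members.

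In vehicle rats kidney held much less of these RNAs than lung. Of 38 genes tested, 33 passed (limma, Benjamini-Hochberg), 31 lower and 2 higher in kidney, against 46.2% of all genes called lower and 27.3% called higher. The median over the 43 was -1.49 on the log2(FPKM + 1) scale, against -0.27 for all genes tested. Apart from Aurkb (-5.40), the lowest were Rrm2 (-2.99 ± 0.40), Prc1 (-2.99 ± 0.21) and Cdk1 (-2.71 ± 0.31, SE). Kif11 (2.52 ± 0.26) and Melk (2.40 ± 0.25, SE) were higher in kidney. In empagliflozin rats the organs were closer. Of 36 tested genes 17 passed, 12 lower and 5 higher in kidney (Kif11, Melk, Tyms, Ect2 and Tk1), against 37.6% of all genes called lower and 25.8% called higher, and the median over the 43 was -0.32. That split depended on the scaling. With quantile normalization 5 were lower and 12 higher, where 32.7% of all genes were called lower and 34.5% higher. With median-ratio scaling 10 were lower and 8 higher, against 32.6% and 32.8% of all genes. In vehicle rats the split was 25 lower and 3 higher with quantile normalization (all genes, 35.2% and 37.0%) and 30 lower and 2 higher with median-ratio scaling (35.8% and 36.5%).

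**Figure D4:**
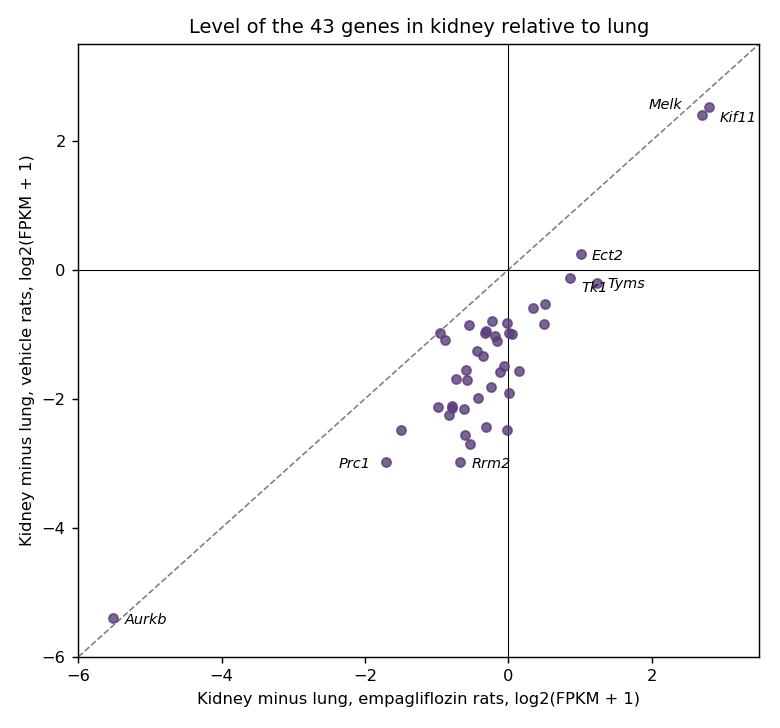
Level in kidney minus level in lung for each of the 43 genes, in empagliflozin rats across and in vehicle rats up, on the log2(FPKM + 1) scale, with the line of equal values dashed. Of the 43 points 42 lie below the line, and Aurkb at the lower left is the exception. Kif11 and Melk lie at the upper right, with more RNA in kidney than in lung in each arm.

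In the other 5 tissues with both arms none of the 43 passed the test. White fat leaned to lower values with empagliflozin, 39 lower and 4 higher, with a median of -0.26, against -0.17 for all genes, of which 68.8% were lower. There 4 of 26 tested were lower at an unadjusted p under 0.05 (Mcm6, Cdk1, Plk1 and Ccna2), against 5.97% of all genes, with 0 passing limma's Benjamini-Hochberg test (smallest adjusted p = 0.549), against 0.00807% of all genes. The arms did not overlap in 9 of the 26, lower in each, against 11.9% of all genes lower and 5.08% higher. Cdk1 in white fat had 1.02, 1.31 and 1.43 FPKM with empagliflozin, against 2.14, 2.01 and 3.22 FPKM with vehicle. Its difference was -0.61 ± 0.23 (SE), that of Mcm6 -0.58 ± 0.20 and that of the polo kinase Plk1 -0.60 ± 0.23. Vehicle white fat library 3 was the highest of its arm in 36 of the 43. Markers of other tissues were uneven in white fat. Brown adipocyte markers summed to 121, 134 and 2229 FPKM with empagliflozin, against 103, 134 and 96.2 FPKM with vehicle. Alveolar type 2 markers summed to 84.1, 51.7 and 8.94 FPKM with empagliflozin, against 18.15 to 22.3 FPKM with vehicle. Airway markers summed to 78.4, 51.4 and 0.63 FPKM with empagliflozin and to at most 0.13 FPKM with vehicle. Their part was not tested. Macrophage markers were lower in 5 of 6, with sums of 41.6, 30.8 and 21.9 FPKM with empagliflozin, against 44.9, 50.0 and 117 FPKM with vehicle. Mesothelium markers were higher in 5 of 5, with sums of 206, 135 and 268 FPKM with empagliflozin, against 62.1, 90.9 and 13.9 FPKM with vehicle. Vehicle library 3 was thus the highest of the 6 in macrophage and the lowest in mesothelium markers. Over these 6 libraries the mean level of the 43 genes correlated with that of the macrophage list at 0.96 and of the mesothelium list at -0.96, as a description, and their part in the result was not tested.

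In aorta 11 genes were higher and 32 lower with empagliflozin, where 67.8% of all tested genes were higher. In brain 32 were higher and 11 lower (all genes, 60.7% higher), in brown fat 27 and 16 (62.1% higher), and in the libraries labelled V 15 and 28 (52.4% higher). In each of these 4 tissues 0 passed with limma (smallest Benjamini-Hochberg adjusted p 0.99 or above) and 0 reached an unadjusted p under 0.05. Among all genes, 0.00% passed in aorta and in brain, 0.00865% in brown fat and 0.00864% in V. At an unadjusted p under 0.05 the shares of all genes higher and lower were 0.982% and 0.0936% in aorta, 1.43% and 1.12% in brain, 2.34% and 1.10% in brown fat, and 1.63% and 2.27% in V. The lowest p in aorta was that of Cdk1 (-0.70 ± 0.51, SE), followed by Tyms and the ubiquitin-conjugating enzyme Ube2c. Cdk1 had 0.95, 2.06 and 0.61 FPKM in empagliflozin aortas, against 1.05, 5.08 and 2.31 FPKM in vehicle aortas. Aorta vehicle library 1, which had little smooth muscle RNA, was the lowest of its arm in 40 of the 43. Without it the Cdk1 difference was -1.08, and without vehicle library 2 it was -0.29. In brain the lowest p were those of Mcm6 (0.42), Mcm4 (-0.31) and Mcm7 (0.26), in brown fat those of Chek1 (0.29), Mcm2 (0.26) and Mcm4 (0.22), and in V those of Mcm2 (0.25), Ube2c (0.27) and Pcna (-0.17). Tpx2, a spindle assembly factor, was high in brain library 2 of each arm, with 10.5 FPKM under empagliflozin and 7.02 FPKM under vehicle, and 0.59 to 2.68 FPKM in the other brain libraries.

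Other genes of the cell cycle, from lists of 135 genes found, were set beside the 43. The shares of all genes at an unadjusted p under 0.05 were 8.42% higher and 3.27% lower in kidney, and 4.47% higher and 2.98% lower in lung. Counts such as 2 of 15 higher in kidney, or 1 of 18 lower in kidney and 1 of 19 lower in lung, lie near these shares and are not read as results on those lists. Of other replication genes, 19 of 37 could be tested in kidney and 3 were higher at an unadjusted p under 0.05, against 33 in lung with 9 lower. Of other mitosis genes, 15 of 53 could be tested in kidney and 2 were higher, against 46 in lung with 29 lower. None passed Benjamini-Hochberg in either organ. Cks2, a small subunit of the cyclin kinases, had 5.68, 2.86 and 4.16 FPKM in empagliflozin kidneys, against 1.91, 1.91 and 2.91 FPKM in vehicle kidneys. In lung it had 3.96, 5.14 and 3.02 FPKM with empagliflozin, against 15.6, 19.7 and 8.71 FPKM with vehicle (difference -1.59 ± 0.29, SE). Its arms overlapped in kidney and were separate in lung. In kidney the checkpoint protein Mad2l1 (0.49 ± 0.16), the replication inhibitor Gmnn (0.61 ± 0.19) and the histone RNA binder Slbp (0.37 ± 0.14, SE) had higher values at an adjusted p of 0.419 (limma, Benjamini-Hochberg). In lung the kinetochore gene Spc25 (-0.79 ± 0.17) and the helicase partners Gins1 (-0.86 ± 0.15) and Cdc45 (-0.83 ± 0.18, SE) had lower values at an adjusted p of 0.621 (limma, Benjamini-Hochberg). Of the regulators of cell cycle entry, 1 of 18 tested was lower in kidney at an unadjusted p under 0.05 and 4 of 22 in lung. Myc, a transcription factor of growth, had 4.03, 5.93 and 2.64 FPKM in empagliflozin kidneys, against 6.19, 8.16 and 8.66 FPKM in vehicle kidneys, opposite in direction to most of the 43. Ccnd3, a D-type cyclin, differed by 0.25 ± 0.14 in kidney, and in lung the phosphatase Cdc25b by -0.42 ± 0.11 and the Cdk1 inhibitor kinase Pkmyt1 by -0.58 ± 0.16 (SE). Of the inhibitors, 5 of 18 were higher in kidney, among them Ccng1 (0.35 ± 0.10) and Btg2 (0.49 ± 0.17, SE), and 1 of 19 was lower in lung, Cdkn2c (-0.64 ± 0.18, SE). Tob1 differed by 0.28 ± 0.13 in lung and did not reach an unadjusted p of 0.05.

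Some lists of cell type markers moved with the 43 genes across libraries and others did not. In kidney the mean levels correlated at 0.92 for the loop to collecting duct list and -0.13 for smooth muscle and macrophage lists. Other lists came near the first value in size, at -0.92 for brown adipocyte, -0.87 for plasma cell and 0.87 for erythroid lists. Endothelium (0.78), podocyte (0.755), proximal tubule (-0.77) and fibroblast (-0.78) lists lay between, so the loop to collecting duct list was not alone. In lung the mean levels correlated at 0.88 for T cells, 0.42 for B cells (3 markers higher, 3 lower) and -0.06 for airway. Mesothelium (-0.97), podocyte (-0.93) and injured tubule (0.92) lists lay further from 0 than T cells. Each correlation covers 6 libraries. In kidney, 7 of 9 markers of the nephron from the loop of Henle to the collecting duct were higher with empagliflozin, and their mean log2 level was 8.53, 7.72 and 9.01 with empagliflozin, against 7.07, 7.59 and 7.64 with vehicle. Their summed level was 5314 to 6680 FPKM with empagliflozin, against 4542 to 5016 FPKM with vehicle. Calb1, of the distal tubule, had 796, 200 and 1106 FPKM with empagliflozin, against 51.3, 64.5 and 87.2 FPKM with vehicle. Empagliflozin kidney 2, the lowest of its arm in the mean of the cell cycle genes, was also the lowest of its arm in 7 of the 9 markers. The other 2 were Umod and Slc12a1, of the thick ascending limb of the loop, in which it was the highest of its arm. Umod had 2037, 3794 and 2235 FPKM with empagliflozin, against 3596, 3668 and 3546 FPKM with vehicle. Podocyte markers (6 of 6) and endothelium markers (8 of 8) were higher too, with sums of 103 to 306 FPKM and 122 to 282 FPKM with empagliflozin, against 37.6 to 127 FPKM and 60.5 to 117 FPKM with vehicle. Empagliflozin kidney 2 had the lowest sum of its arm in both lists. Proximal tubule markers were lower in 9 of 10, with sums of 8617 to 19020 FPKM with empagliflozin, against 18760 to 20490 FPKM with vehicle. Injured tubule markers were higher in 5 of 7 and lower in 2. Their sums, mostly Spp1, were 312 to 446 FPKM with empagliflozin, against 112 to 161 FPKM with vehicle. T cell markers were close to 0 in kidney, with sums of 1.97 to 2.15 FPKM with empagliflozin, against 0.59 to 2.44 FPKM with vehicle.

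In lung, 7 of 7 T cell markers were lower with empagliflozin, with sums of 88.3, 90.1 and 59.4 FPKM with empagliflozin, against 155.8, 153 and 55.0 FPKM with vehicle. Vehicle lung 3, lowest of its arm in the cell cycle genes, was the lowest of all 6 here. Markers of mesothelium, the lining of the lung surface, were higher in 5 of 5, with sums of 306 to 378 FPKM with empagliflozin, against 197 to 237 FPKM with vehicle. Upk3b, of that lining, had 26.4, 45.8 and 36.2 FPKM with empagliflozin, against 0.15, 0.11 and 20.1 FPKM with vehicle. Vehicle library 3 was again the nearest of its arm to the empagliflozin lungs. Endothelium markers were higher in 8 of 8, with sums of 1047 to 1302 FPKM with empagliflozin, against 606, 733 and 1436 FPKM with vehicle, and erythroid markers were lower in 6 of 6, with sums of 9.46 to 14.8 FPKM with empagliflozin, against 20.5 to 25.4 FPKM with vehicle. Of the 7 genes on the thymocyte list 5 were lower in lung, with sums of 34.7 to 48.6 FPKM with empagliflozin, against 42.5 to 55.5 FPKM with vehicle. Its mean level correlated with that of the 43 genes at 0.99 over the 6 lung libraries. The defining genes Rag1, Rag2, Dntt and Ptcra were at or under 0.26 FPKM in each. Cd4, which mature T cells also express, made up most of the sum with 31.9 to 45.7 FPKM with empagliflozin, against 39.0 to 48.6 FPKM with vehicle. Cd8b had 2.14, 1.73 and 2.05 FPKM with empagliflozin, against 5.33, 5.74 and 2.64 FPKM with vehicle. T cells were not the only immune list that was lower. Macrophage markers were lower in 5 of 6 (correlation 0.66) and neutrophil markers in 6 of 6 (0.265) in lung. The injured tubule list was lower in 6 of 7 and higher in 1 there. Of it, Lcn2 had 341, 318 and 289 FPKM in empagliflozin lungs, against 3415, 1652 and 699 FPKM in vehicle lungs. The part of any of these markers in the results on the 43 genes was not tested.

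**Figure D5:**
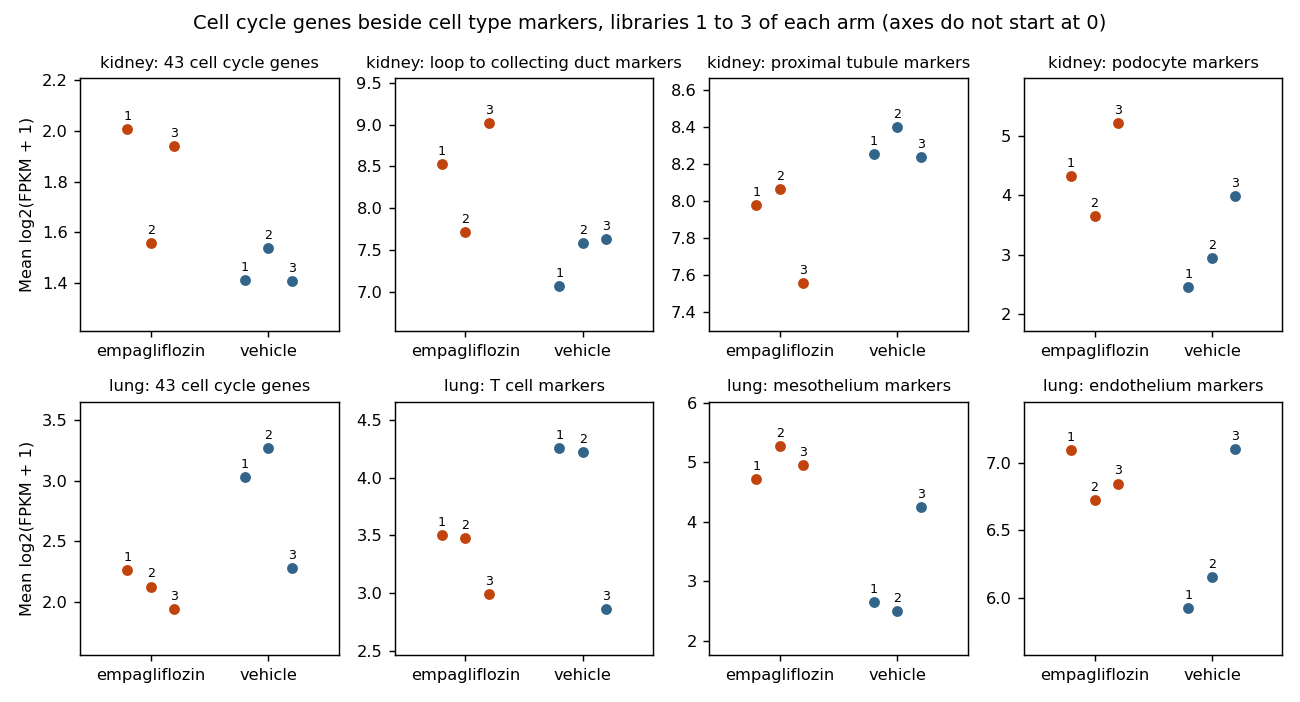
Mean log2(FPKM + 1) of the 43 cell cycle genes beside that of marker lists in the same libraries, kidney above and lung below, empagliflozin in red to the left of vehicle in blue, with library numbers. The axes do not start at 0. Empagliflozin kidney 2 is the lowest of its arm in the cell cycle, loop to collecting duct and podocyte panels and the highest in the proximal tubule panel. Vehicle lung 3 lies close to the range of the empagliflozin lungs in the cell cycle, T cell and endothelium panels. For mesothelium it is the nearest of its arm to them.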

How the data were processed

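Per the labels' protocols, total RNA of rat tissues was read on a BGISEQ-500 as 50-base single-end reads. HISAT2 2.0.4, Bowtie2 2.2.5 and build Rnor_6.0 are named in the submitters' processing notes, with no role or order. The counting program and its use of strand were not given in the sources used here. As deposited by the authors, values are FPKM per gene and library with 2 decimals, and they hold no counts, so no count test was made and a 0 can be a failed estimate. FPKM are relative within a library, so a shift in abundant RNAs moves all other genes.

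Members were matched by gene symbol. The members and the gene lists were chosen with earlier results of these data known. For each tissue, limma 3.58.1 in R 4.3.3 (intensity trend) was fitted to log2(FPKM + 1) of all genes that averaged 1 FPKM or more over the libraries of the fit, with Benjamini-Hochberg adjustment over all genes at 0.05. Tests are two-sided. A difference on this scale understates that of low genes. The same model with an arm by tissue term compared kidney and lung. The procedure was also run on simulated data, in which genes varied independently and changed genes had a mean log2 level of at least 2. It therefore does not show how well low genes that move together are tested. Named genes are Mki67, Top2a, Cdk1, Mcm2, Pcna and Rrm2, the 10 members with the lowest p in kidney, lung and their difference, the 3 in other tissues, and the 2 of each pathway list in kidney and lung, together with exceptions in direction, chosen after their values were seen. Alternatives were a pseudocount of 0.1, other filters (none, a mean of 1 FPKM in at least 1 group, 5 FPKM), quantile and median-ratio scaling, the replicate number as a block, all 7 tissues in 1 fit and each library left out.

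Replicate numbers come from the titles. In lung, libraries of the same number deviated together (r = 0.233, 0.308 and 0.351, and 6 of 6 libraries were closest to their own number), so the numbers were read as pairs there. The arms are different rats, and this was read from the same data, so the block is an alternative only. If the 3 rats per arm gave all tissues, kidney and lung libraries are not independent. The test of their difference took them as independent. With the replicate block 0 of the members passed in lung and 34 were lower at an unadjusted p under 0.05, against 30 without it, while the share of all genes lower was 4.95%, against 2.98%. Promoters are RefSeq's of GRCr8, and no coordinates of the authors' build were used.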

Additional observations from a re-analysis of the deposited data

Results flagged for a closer look

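In 14 of the 43 genes every empagliflozin kidney lay above every vehicle kidney while every empagliflozin lung lay below every vehicle lung. Of all genes tested, 13.6% were separate and higher in kidney, and 4.75% were separate and lower in lung. Those shares cover tested genes only, while the 14 include genes too low to be tested in kidney, such as Mki67 and Bub1. The share of all genes with both was not computed, so the count of 14 is a description. The difference of the effects (kidney minus lung, log2 scale) was 1.43 for Mcm5, 0.85 for Pcna, 2.32 for Rrm2, 1.44 for Tyms, 2.17 for Cdk1, 1.13 for Bub1, 0.56 for Cenpe, 0.81 for Ncapg, 2.12 for Top2a, 1.33 for Mki67, 1.47 for Kif20a, 0.99 for Hmmr, 1.72 for Racgap1 and 2.46 for Cdca3. The difference itself was tested in 12 of them with limma and none passed the Benjamini-Hochberg adjustment (adjusted p 0.228 to 0.395). Cenpe and Ncapg had a mean under 1 FPKM and were not tested.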

How the results depend on the processing

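In kidney, lung and their difference 0 members passed in the fits reported, and the counts moved with single libraries and with shared spread. Leaving out each library in turn gave 0 to 8 members called in kidney, 0 to 7 in lung and 0 to 15 for the difference. In the fits with the most members called, the shares of all genes were 4.73% higher, 0.215% lower and 0.397% above 0. With all 7 tissues in 1 fit, 4 were called in lung and 6 for the difference (all genes, 0.0882% lower and 0.197% above 0). At an unadjusted p under 0.05, leaving out libraries gave 3 to 19 higher in kidney, 12 to 38 lower in lung and 23 to 34 above 0 for the difference, a count added after seeing the data. The shares of all genes moved too, from 2.94% to 20.9%, from 1.80% to 9.37% and from 3.98% to 14.7%, in that order. With a mean of at least 5 FPKM, 18 instead of 33 genes were called between the organs in vehicle rats and 8 instead of 17 in empagliflozin rats, as fewer genes were tested. Of all genes, 30.9% were then called higher and 43.4% lower in kidney in vehicle rats, and 29.2% and 34.8% in empagliflozin rats. With a pseudocount of 0.1 the kidney median was 0.67 instead of 0.36. Quantile and median-ratio scaling removed the kidney median of all genes, 0.10, and gave member medians of 0.23 and 0.28. In V, Pcna ranged from -0.376 to 0.013 when libraries were left out, with 0.013 without vehicle library 1. The cause of these shifts was not tested. Of 866 values for the 61 named results under the alternatives, 829 kept direction and side of the threshold, 36 passed it and 1 turned.

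The replicate block changed no call in any tissue (0 called in each), gave 34 genes between organs in vehicle rats and 16 in empagliflozin rats, and lowered the kidney members at an unadjusted p under 0.05 to 9 from 13 (all genes, 6.56% and 8.42%). Between organs, 26.9% of all genes were called higher and 45.8% lower in vehicle rats with that block, and 23.7% and 34.9% in empagliflozin rats. In kidney the same-numbered libraries correlated at -0.37 to 0.17, so that number is no pairing there. Read depth is unknown, and 13 members in kidney and 3 in lung were too low to be tested.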

Other observations

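Tpx2 and Hmmr held levels in brain above those of Mki67. Hmmr, a spindle and hyaluronan-binding protein, had 2.04, 2.33 and 1.13 FPKM in empagliflozin brains, against 1.46, 2.08 and 1.06 FPKM in vehicle brains, while Mki67 had 0.26 to 0.51 FPKM with empagliflozin and 0.35 to 0.46 FPKM with vehicle. Hmmr also had 1.19, 1.25 and 1.30 FPKM in empagliflozin atrium. Tyms was highest in brown fat among vehicle tissues, with 9.83, 9.56 and 11.3 FPKM with empagliflozin, against 7.77, 9.93 and 10.8 FPKM with vehicle, where Mki67 was 0.06 to 0.32 FPKM with empagliflozin and 0.18 to 0.22 FPKM with vehicle. Over the 45 libraries the correlation with the mean of the other members was 0.15 for Tyms and 0.31 for Rrm1, against a median of 0.84 over the 43. The libraries share tissues and arms, so these values are descriptions.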
